A study of Drosophila melanogaster with 2 samples.

Results

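The 10 genes described here mark or regulate the progenitor cells of the fly midgut: esg, Sox21a, Sox100B, klu, zfh2, Snoo, hdc, Tet, spdo and mira. They were taken by name from a table of 13816 loci, and all 10 passed the filter on low counts that left 8137 loci for testing. Only 5 of them, esg, Sox21a, Sox100B, klu and zfh2, encode transcription factors that bind a set DNA sequence. The other 5 are a SMAD partner (Snoo), a factor of progenitor maintenance (hdc), a dioxygenase (Tet), a Notch regulator (spdo) and a cortical adaptor (mira).

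The lining of the adult posterior midgut is renewed by intestinal stem cells. A stem cell divides to give another stem cell and an enteroblast, which receives a Notch signal and becomes an absorptive enterocyte, while hormone-secreting enteroendocrine cells arise by a separate route with little Notch signalling. Escargot, the product of esg, is the factor most used to mark stem cells and enteroblasts together, and several of the other genes act either to hold these cells back or to let them differentiate.

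Poly(A) RNA was sequenced from the posterior midguts of wild-type Oregon R females raised at 25 °C, at the ages of 5 days and 45 days. Per the labels, each age was represented by 75 dissected guts, pooled for extraction, and by 3 biological replicates. The deposited table names its 6 libraries treatment 1 to 3 and control 1 to 3, and no source used here says which set is which age. If control is the younger age, as is usual, a value higher in treatment is a value higher at 45 days. Summed over loci, depth ran from 9581965 to 18001958 reads. In bulk tissue, a change in the number of cells that express a gene and a change in the RNA per cell cannot be told apart, and this holds for every gene below.

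Of the 10 genes, 8 were called, 7 of them higher in treatment and 1, Snoo, lower, while zfh2 and Tet did not pass the test. Across all loci tested, 49.2% were called, 25.0% higher and 24.1% lower (edgeR, adjusted p under 0.05). The median log2 fold change of the 10 genes was 0.47, beside 0.01 for all loci, and their median absolute log2 fold change was 0.52 beside 0.22. The treatment and control libraries did not overlap for 9 of the 10 genes, 8 of them higher and 1 lower in treatment, which was also so for 55.2% of all loci (28.4% higher and 26.9% lower). Together the 10 genes took 270.0, 258.6 and 267.7 CPM (read counts relative to library size, scaled by the TMM method) across the treatment set, against 188.2, 187.5 and 192.4 CPM across the control set.

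**Figure D1:**
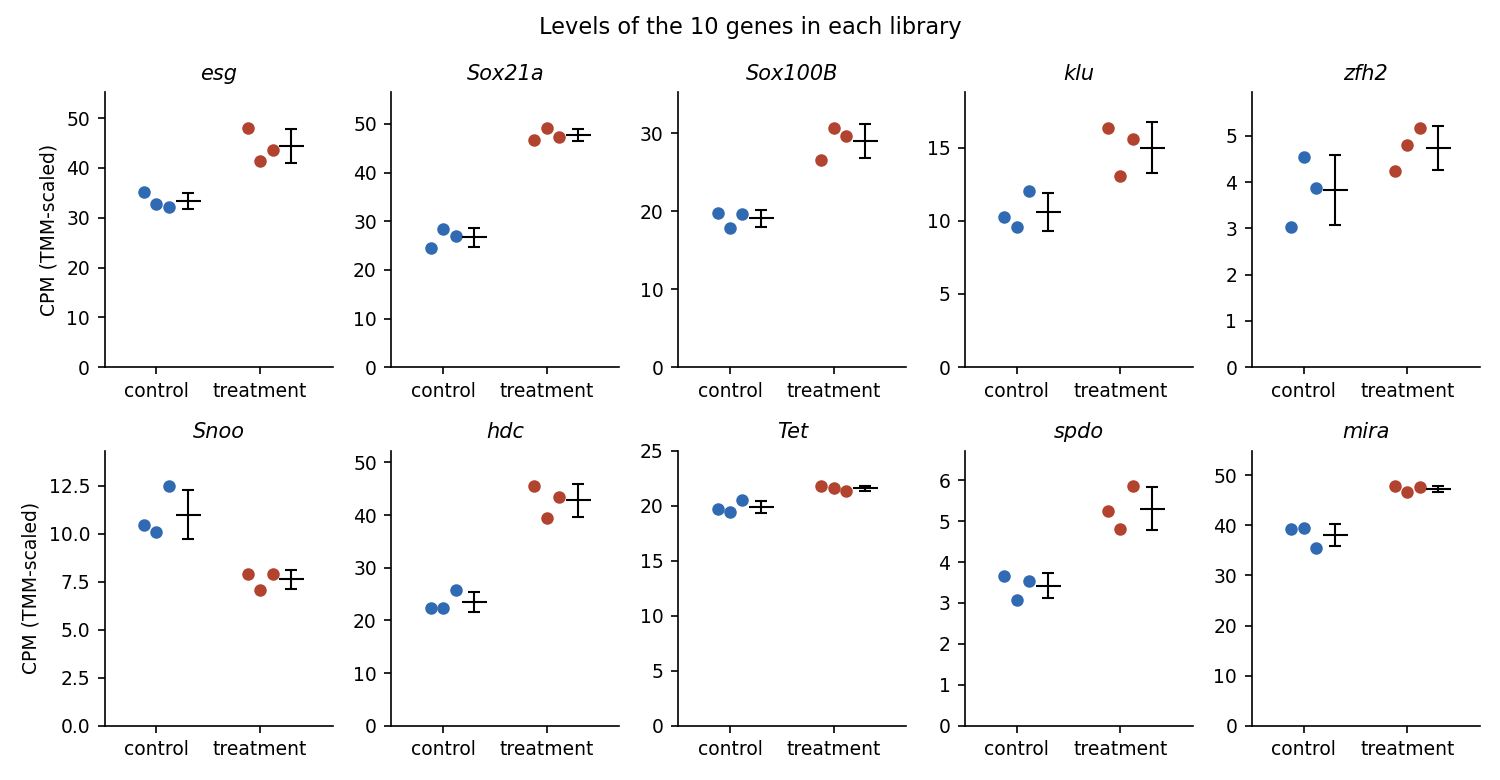
TMM-scaled CPM (vertical axes, starting at 0) of each gene in the 3 control and 3 treatment libraries (points), with the mean and SD beside them. The sets are apart for every gene except zfh2, and Snoo is the gene whose treatment libraries lie below its control libraries.

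Where the scaling was by total reads alone, the median of all loci moved from 0.01 to 0.22 on the log2 scale, and 63.9% of loci were called, 50.7% higher and 13.2% lower. Under that scaling 9 of the 10 genes were called higher, now including zfh2 (0.47, adjusted p = 0.0202) and Tet (0.32, adjusted p = 0.000412), and Snoo stayed lower (-0.31, adjusted p = 0.0226). A change of scaling shifts all loci by nearly the same amount, so the distance of a gene from the median of all loci is fixed by construction and is given as a description. The log2 distance from that median was 0.82 (TMM) and 0.82 (total reads) for Sox21a, 0.42 and 0.42 for esg, and -0.53 and -0.53 for Snoo. For Tet it was 0.10 in both, and for zfh2 it was 0.25 in both.

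**Figure D2:**
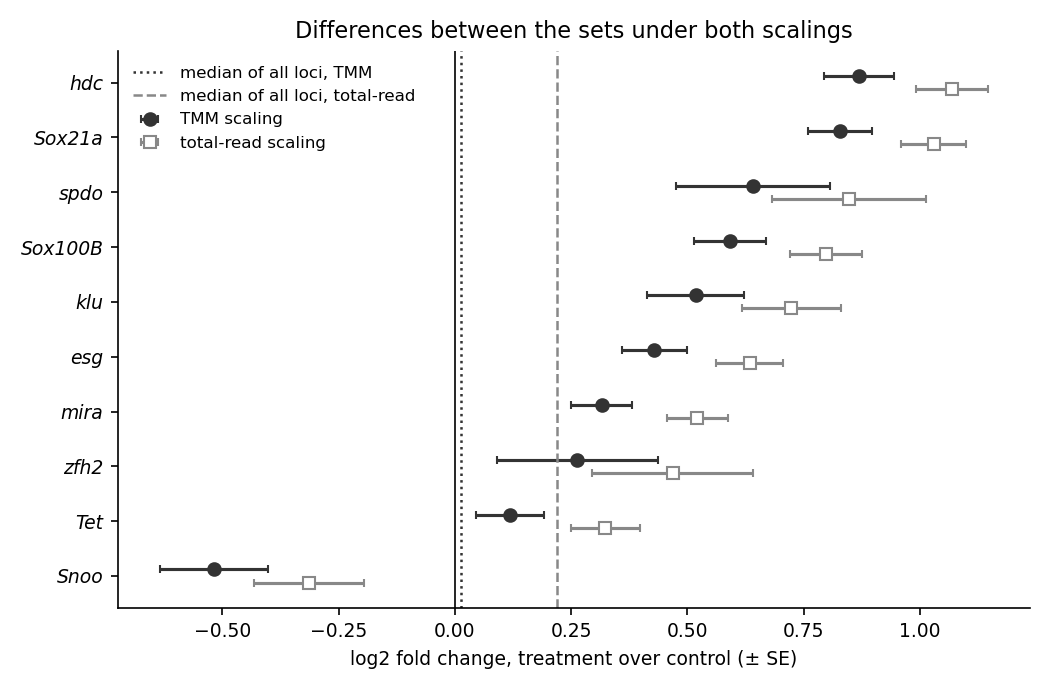
Log2 fold change of treatment over control with its SE for each gene, under TMM scaling (filled circles) and total-read scaling (open squares). Vertical lines mark the median of all loci at 0.01 and 0.22, and 9 of the genes lie to the right of the matching line while Snoo lies to the left of both.

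The factor esg (2L, 15333864 to 15336150, in the unnamed build of the deposited table) encodes a zinc-finger repressor of the Snail family that keeps stem cells and enteroblasts undifferentiated. Its single-exon transcript had 941, 423 and 515 reads across the treatment set, against 393, 511 and 471 across the control set, or 48.0, 41.5 and 43.7 CPM against 35.1, 32.7 and 32.1 CPM. Every treatment library was above every control library. The means were 44.4 ± 3.35 and 33.3 ± 1.58 CPM (SD, n = 3 each), a 1.35-fold difference (log2 0.43, SE 0.07, adjusted p = 4.80e-06), and 12.2% of loci tested had a higher log2 fold change. Among its Snail-family relatives, wor had 2 reads or fewer in each library and scrt had 0 in all. The relative sna, named after its values were seen, had 81, 48 and 56 reads across treatment, against 19, 25 and 25 across control (log2 1.42, SE 0.20, adjusted p = 3.50e-07). Because esg is also known from tracheal cells, trachea markers were set beside it: 5 of 6 were matched and tested, none of these was at 0, 3 were called lower (trh, Gasp and verm) and 0 higher, and their summed level was 12.7 to 13.7 CPM in treatment and 16.0 to 18.9 CPM in control. With total-read scaling 0 of these were called. Of all loci, 25.0% were called higher and 24.1% lower with TMM scaling, and 50.7% and 13.2% with total-read scaling.

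Both Sox genes rose. Sox21a (3L, 14096581 to 14101218), a SoxB-type HMG-box factor that progenitors need in order to differentiate, had 46.7, 49.2 and 47.4 CPM in treatment and 24.5, 28.5 and 27.0 CPM in control. The sets were far apart relative to the spread within them, at 47.8 ± 1.28 against 26.7 ± 2.002 CPM (1.78-fold, log2 0.83, SE 0.07, adjusted p = 7.77e-12). Its reads numbered 915, 502 and 559 against 275, 445 and 397, and even the shallowest library is well above the filter. Only 3.90% of loci tested had a higher log2 fold change.

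The SoxE-type factor Sox100B (3R, 26891079 to 26909129) is likewise active in the midgut stem cell lineage. It stood at 26.5, 30.7 and 29.7 CPM in treatment and at 19.7, 17.9 and 19.6 CPM in control (1.51-fold, log2 0.59, SE 0.08, adjusted p = 1.08e-07). The lowest treatment library was thus above the highest control library. Of the other Sox genes on the list of fate factors, Sox14 was at 68.8 ± 5.21 and 66.6 ± 2.43 CPM and was not called (adjusted p = 0.496). Sox15, SoxN, Sox102F and D had from 0 to 2 reads in any library and were not tested.

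The enteroblast factor klu (3L, 10974826 to 11001924), a zinc-finger repressor that keeps enteroblasts from the enteroendocrine fate, was also higher in treatment. Its libraries had 16.3, 13.03 and 15.6 CPM against 10.3, 9.54 and 12.1 CPM, with the highest control library just under the lowest treatment library. The difference was 1.43-fold (log2 0.52, SE 0.10, adjusted p = 0.000106). A snoRNA that lies within klu had 0 reads.

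For zfh2 (4, 524477 to 560418), a large zinc-finger homeodomain factor present in enteroblasts, the sets overlapped. It had 83, 49 and 61 reads across treatment, against 34, 71 and 57 across control, or 4.24, 4.80 and 5.17 CPM against 3.03, 4.55 and 3.88 CPM. Control library 1 was the lowest and control library 2 lay among the treatment libraries. The log2 fold change was 0.26 with a 95% interval from -0.08 to 0.60 (adjusted p = 0.216). Leaving out control replicate 2 gave 0.42 and leaving out control replicate 1 gave 0.13, with adjusted p of 0.0822 and 0.591.

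Headcase, the product of hdc (current symbol heca; 3R, 26103656 to 26187891), maintains progenitors in the gut and in imaginal tissue. It had 890, 402 and 513 reads across treatment, against 251, 350 and 378 across control, or 45.4, 39.4 and 43.5 CPM against 22.4, 22.4 and 25.7 CPM. The sets were well apart, at 42.8 ± 3.09 against 23.5 ± 1.92 CPM (1.83-fold, log2 0.87, SE 0.07, adjusted p = 1.58e-11). Its log2 fold change and that of Sox21a, 0.83, lay within 1 SE of each other, and their order turned without treatment replicate 1 (0.819 for hdc, 0.849 for Sox21a) and without control replicate 2 (0.835 and 0.885). Of 3 models listed for hdc, 2 carry identical reads over 4592 bases. The shorter model of 2437 bases, which begins near the end of the locus, rose by a similar amount (log2 0.81 against 0.88 for the long model, in a fit over all transcripts, of which 50.4% were called).

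Snoo (2L, 7892316 to 7977963), the fly member of the Ski and Sno family of SMAD partners, was the gene that fell. Its most-read transcript had 155, 72 and 93 reads across treatment, against 117, 157 and 183 across control, or 7.91, 7.06 and 7.89 CPM against 10.4, 10.1 and 12.5 CPM. All control libraries were above all treatment libraries. The mean was 1.43-fold lower in treatment (log2 -0.52, SE 0.12, adjusted p = 0.000378), and 11.6% of loci had a lower log2 fold change. The call held without each library in turn, with log2 values from -0.58 to -0.42.

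Snoo is listed with 5 transcripts. Of these, 4 share the downstream end of the gene and were between -0.57 and -0.50 on the log2 scale. Their read counts were nearly the same (146 to 155 in treatment replicate 1), so they do not count as separate observations. The remaining model, of 6771 bases, stops well upstream (7954718 to 7977963). It had 23, 13 and 21 reads across treatment, against 17, 19 and 21 across control (log2 0.01, SE 0.28, adjusted p = 0.974). With so few reads and this SE, a fall like that of the other models cannot be told from no change. The start of 2 of the Snoo models overlaps CG7231, on the other strand, by 239 bases. CG7231 had 16724 reads over the 6 libraries and was lower in treatment (log2 -1.56), and the strand setting of the libraries is not given in the sources used here. The most-read Snoo transcript does not reach this overlap and was at -0.50 in the fit over all transcripts, beside -0.51 and -0.57 for the models that do.

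Tet, a dioxygenase of the family that oxidises methylated nucleic acids, is not named as such in the deposited table. Its gene ID belongs there to the locus CG2083 (3L, 2788122 to 2800130, 7232 bases of transcript), which had 426, 220 and 252 reads across treatment, against 221, 303 and 301 across control. Its levels were 21.7, 21.6 and 21.4 CPM against 19.7, 19.4 and 20.5 CPM. Although these sets do not overlap, the log2 fold change of 0.12 (SE 0.07, 95% interval -0.02 to 0.26) did not pass the test (adjusted p = 0.185).

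In RefSeq's Release 6 gene table, CG2083 is joined to a further locus, CG9973, under the name Tet. In the deposited coordinates CG9973 lies upstream on the same strand (3L, 2848576 to 2871710, 2154 bases of transcript). It had 104, 54 and 57 reads across treatment, against 35, 57 and 43 across control, or 5.31, 5.29 and 4.83 CPM against 3.12, 3.65 and 2.93 CPM, and was called higher (1.59-fold, log2 0.67, SE 0.17, adjusted p = 0.00128). The upstream and downstream parts of Tet thus gave different calls. Reads of CG9973 per read of CG2083 were 0.244, 0.245 and 0.226 across the treatment set, against 0.158, 0.188 and 0.143 across the control set, without overlap. The exact permutation test (two-sided) gave p = 0.1, the smallest that 3 against 3 libraries allow. With the reads of both loci summed, Tet was at 0.21 (adjusted p = 0.0142). Setting CG2083 beside CG9973 was chosen after their counts had been seen.

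Sanpodo, a membrane protein encoded by spdo (3R, 26302411 to 26304571), is bound by Numb and controls Notch at asymmetric divisions. The gene was lowly expressed, with 103, 49 and 69 reads across treatment, against 41, 48 and 52 across control, or 5.26, 4.80 and 5.85 CPM against 3.66, 3.07 and 3.54 CPM. No control library reached the treatment libraries, and the difference was 1.56-fold (log2 0.64, SE 0.17, adjusted p = 0.00166). All of spdo lies within the span of PH4alphaEFB on the same strand. PH4alphaEFB had 683 reads in all and was itself higher in treatment (log2 0.61, adjusted p = 8.26e-05), and its part in the spdo value was not tested.

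Miranda, the product of mira (3R, 15757521 to 15760842), carries fate determinants such as Prospero to the basal cortex of dividing neuroblasts. In the gut libraries mira was at 47.8, 46.6 and 47.6 CPM in treatment and 39.4, 39.4 and 35.5 CPM in control. The sets were close but did not overlap, and the rise was the smallest of those called (1.25-fold, log2 0.32, SE 0.07, adjusted p = 0.000147). It lies within the span of Hs6st on the same strand, which had 301 reads in all and was not called (log2 -0.32, adjusted p = 0.132). Since mira, spdo, klu and zfh2 are also known from neural cells, neuron markers were examined. Of 9 such genes 7 were matched and 3 tested, their summed level was 4.80 to 5.16 CPM in treatment and 3.33 to 5.72 CPM in control, and VGlut was at 0 in all libraries. Among them elav had 39, 21 and 20 reads across treatment, against 7, 10 and 17 across control (log2 1.22, adjusted p = 0.000867). The other 2 tested, named to complete the list, were not called. They were nSyb (log2 0.03, adjusted p = 0.927) and Syt1 (log2 -0.56, adjusted p = 0.241). The part of neural cells in the values of the 10 genes was not tested.

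To compare genes with each other, CPM were divided by the length of the most-read transcript. In control, esg was the highest of the 10 at 14.6 ± 0.690 CPM per kb, followed by mira (11.5 ± 0.666) and Sox21a (11.4 ± 0.857), whose ranges overlapped. Sox100B, at 9.80 ± 0.534 CPM per kb, and hdc, at 5.12 ± 0.419, came next and were apart from their neighbours. Tet (2.75 ± 0.0773) and klu (2.74 ± 0.334) could not be ordered, nor could spdo (1.65 ± 0.149) and Snoo (1.52 ± 0.179), and zfh2 was last at 0.362 ± 0.0718. The median over all loci tested was 10.5 CPM per kb.

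The order differed in treatment at its top. Sox21a (20.5 ± 0.549 CPM per kb) and esg (19.4 ± 1.47) had overlapping ranges, as had Sox100B (14.9 ± 1.11) and mira (14.2 ± 0.182), while klu, at 3.87 ± 0.448, was apart from Tet, at 2.98 ± 0.0263. Over the 6 libraries, 61.5% of loci tested lay below esg and 60.0% below Sox21a on this scale, but only 2.96% below zfh2.

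**Figure D3:**
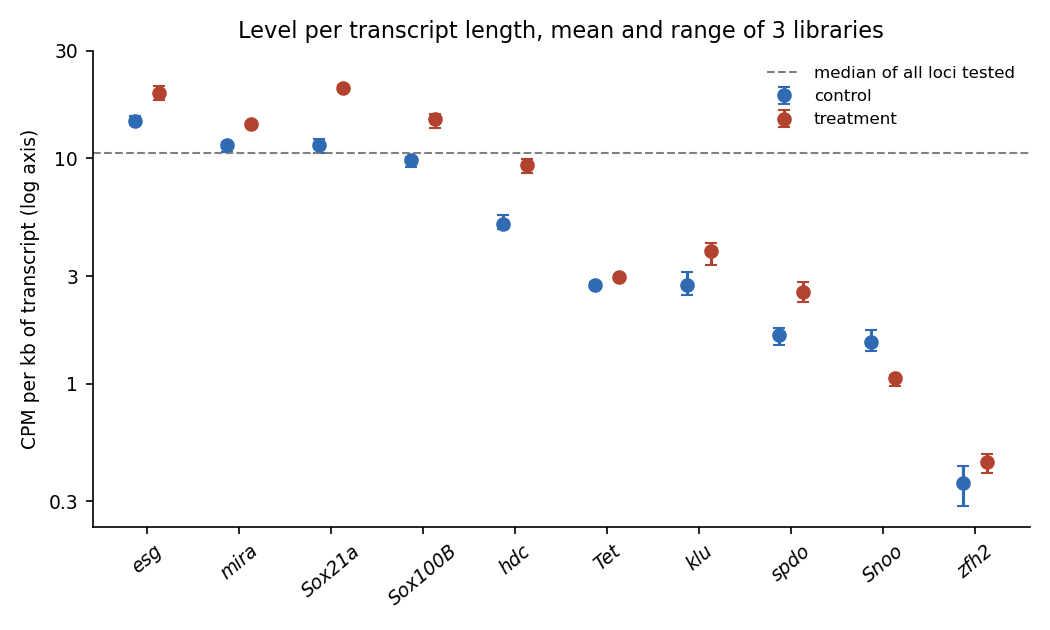
CPM per kb of the most-read transcript (log axis) for each gene in control and treatment, as the mean of 3 libraries with bars from the lowest to the highest. The dashed line marks the median of all loci at 10.5, and zfh2 lies far below the other genes in both sets.

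A ratio of reads within a library does not depend on scaling between libraries, so each gene was also set against esg. Reads of hdc per read of esg were 0.946, 0.950 and 0.996 in treatment and 0.639, 0.685 and 0.803 in control, and those of Sox21a were 0.972, 1.19 and 1.09 against 0.700, 0.871 and 0.843. Both ratios were higher in treatment without overlap, by 1.37-fold and 1.35-fold. For Snoo the ratio was 0.165, 0.170 and 0.181 in treatment and 0.298, 0.307 and 0.389 in control, and for Tet it was 0.453, 0.520 and 0.489 against 0.562, 0.593 and 0.639, both lower without overlap. Each of these 4 gave an exact two-sided permutation p = 0.1, the smallest possible here, and 0.225 after Benjamini-Hochberg adjustment over the 9 ratios. Because esg itself lay 0.42 above the median of all loci on the log2 scale, a locus at that median also falls against esg. The fall of Tet against esg (log2 -0.30) was smaller than that, and the fall of Snoo (-0.94) was larger. The share of all loci whose ratios to esg do not overlap was not computed. The sets overlapped for the ratios of Sox100B, klu, zfh2, spdo and mira to esg, whose log2 differences ran from -0.10 for mira to 0.22 for spdo. These 5 values depended on single libraries. Without 1 library at a time, Sox100B ran from 0.0979 (without treatment replicate 2) to 0.309 (without treatment replicate 1), and klu from 0.0224 (without control replicate 2) to 0.205 (without control replicate 3). The ratio of spdo ran from 0.133 (without treatment replicate 3) to 0.279 (without treatment replicate 1), and was 0.125 with reads summed over transcripts (exact permutation p = 0.6). For mira the range was -0.136 (without treatment replicate 2) to -0.0471 (without treatment replicate 1), and for zfh2 it was -0.283 (without control replicate 1) to 0.0586 (without control replicate 2).

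**Figure D4:**
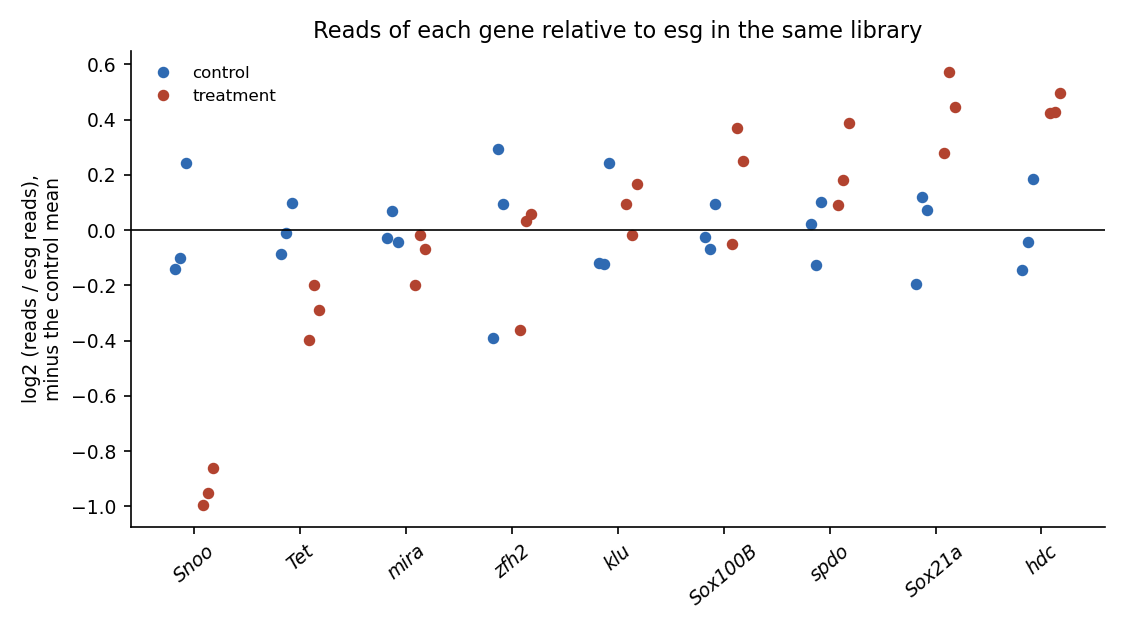
Log2 of the reads of each gene over the reads of esg in the same library, minus the mean of the 3 control libraries. Treatment points of hdc and Sox21a lie above all control points, those of Snoo and Tet lie below them, and the sets overlap for the other 5 genes.

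Genes of related function were counted on lists drawn from general knowledge, but with earlier results of these data known. The counts are therefore given as a description. Of 22 Notch signalling genes tested, 16 were higher in treatment and 0 lower, with a median log2 fold change of 0.36, where 25.0% of all loci were higher and 24.1% lower. With total-read scaling, 20 were called higher and 0 lower, where 50.7% and 13.2% of all loci were. The stem cell ligand Delta was at 29.1 ± 0.398 against 17.4 ± 1.46 CPM (log2 0.74, SE 0.08, adjusted p = 8.03e-10). The receptor gene N was at 15.7 ± 1.83 against 7.94 ± 0.349 CPM (1.99-fold, adjusted p = 1.49e-09), and the Notch target E(spl)m3-HLH rose 1.67-fold. The 6 tested genes of the pathway that were not called include Su(H) and numb. Su(H), the DNA-binding partner of Notch, was at 2.68 ± 0.127 against 3.10 ± 0.0584 CPM (adjusted p = 0.391), and numb, whose product binds Sanpodo, was at 51.3 ± 2.13 against 49.5 ± 2.94 CPM (adjusted p = 0.550).

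On the list of asymmetric division and cortical polarity, where Miranda acts, 14 of 21 tested genes were higher and 0 lower (median log2 0.33), beside the same 25.0% and 24.1% of all loci. With total-read scaling all 21 were called higher, beside 50.7% of all loci, at a median of 0.53 when the median of all loci was 0.22. The genes with the smallest adjusted p were zip, the non-muscle myosin heavy chain (354.3 ± 10.6 against 264.7 ± 7.98 CPM), cnn, a centrosome scaffold (1.61-fold), and Galphai, a G protein subunit of spindle orientation (1.27-fold). The cargo of Miranda, pros, was at 7.52 ± 0.611 against 6.81 ± 0.539 CPM and was not called (adjusted p = 0.328).

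On the list of other fate factors 10 of 24 tested genes were higher and 3 lower (median log2 0.04). The share called in either direction is near the 49.2% of all loci. By direction, the share higher was above the 25.0% of all loci and the share lower was below their 24.1%. Ets21C (1.89-fold), pnt (1.76-fold) and Jra (1.39-fold), factors at the end of JNK and EGFR signalling, had the smallest adjusted p among them. The enterocyte factor nub (1.13-fold higher, adjusted p = 0.00199) and the GATA factor GATAe (129.2 ± 5.16 against 135.3 ± 3.28 CPM, adjusted p = 0.277) are on the same list. With total-read scaling the split was 17 higher and 1 lower, beside 50.7% and 13.2% of all loci. Among the SMAD pathway partners of Snoo, 4 of 15 tested genes were higher and 2 lower (median log2 -0.04), or 9 and 2 with total-read scaling. Of all loci, 49.2% were called in either direction with TMM (25.0% higher, 24.1% lower). With total-read scaling it was 63.9% (50.7% higher, 13.2% lower). The called SMAD partners include the receptor gene wit, at 11.4 ± 0.850 against 22.9 ± 1.56 CPM (log2 -0.99), the ligand gene gbb (1.54-fold higher) and Atf3 (1.43-fold higher). The other called genes, named after their values were seen, were the ligand gene myo (log2 -0.49), the receptor gene sax (0.34) and brk, a repressor of Dpp targets (0.29).

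**Figure D5:**
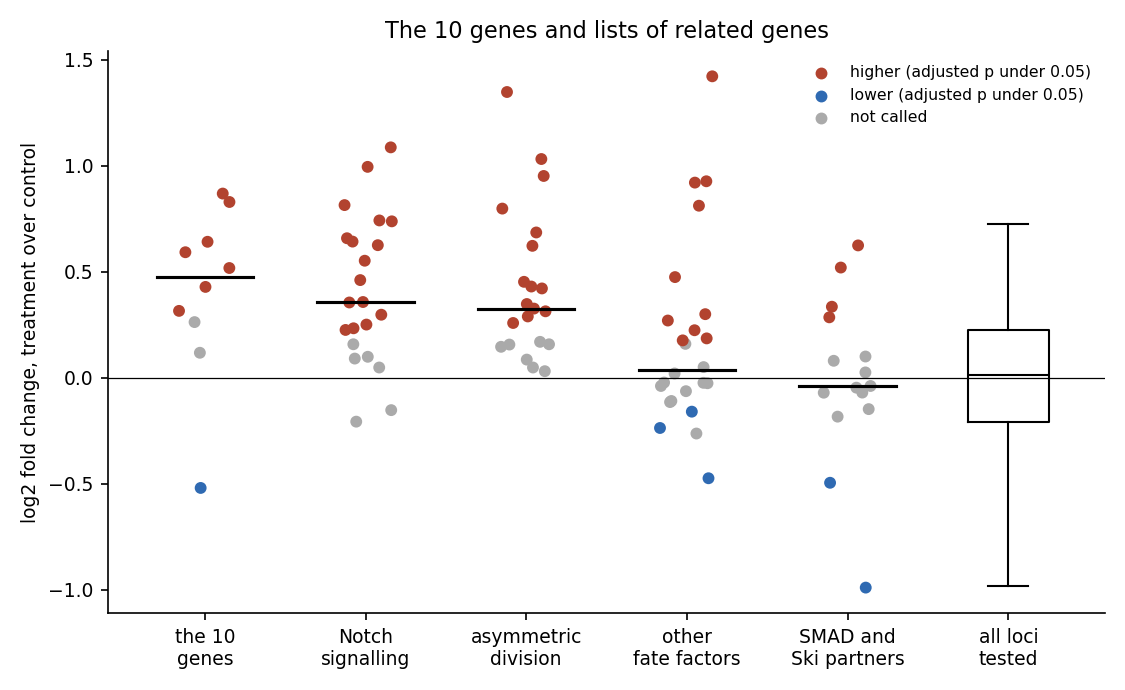
Log2 fold change of treatment over control for the 10 genes and for the tested genes of 4 lists (points, coloured by call; black lines are medians), beside a box of all loci tested whose whiskers span the 5th to 95th percentile. The medians of the 10 genes, of the Notch list and of the asymmetric division list are 0.47, 0.36 and 0.33, against 0.01 for all loci.

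Markers of differentiated cells also differed over the same libraries. Of all loci, 25.0% were called higher and 24.1% lower with TMM scaling, and 50.7% and 13.2% with total-read scaling. Of 11 enterocyte markers, all detected, 7 were lower and 3 higher, and their summed level was 10320 to 11050 CPM in treatment and 20850 to 21930 CPM in control. The lipase gene mag (1103 against 4703 CPM, 4.27-fold lower) and the protease gene Jon65Ai (1277 against 4044 CPM, 3.17-fold lower) fell, while Vha100-4, a proton pump subunit gene, was at 28.9 against 1.06 CPM. Other enterocyte markers differed little, so the sums do not stand for every marker. Named after their values were seen, Myo61F was at 2142 against 2260 CPM (adjusted p = 0.182) and Myo31DF at log2 -0.17. The factor nub was at log2 0.18. With total-read scaling the enterocyte split was 4 higher and 5 lower, and the median log2 fold change turned from -0.17 to 0.03. Enteroendocrine markers were lower in 7 of 12 cases and higher in 0, with sums of 387.4 to 406.6 and 539.5 to 580.4 CPM, or lower in 6 and higher in 2 with total-read scaling. The peptide hormone genes Tk, AstA and Dh31 were 2.20-fold, 1.66-fold and 2.10-fold lower. The 5 markers not called include pros (log2 0.16) and 2 hormone genes named after their values were seen. These were NPF (log2 0.04, adjusted p = 0.836) and CCHa1 (log2 -0.05, adjusted p = 0.537), so the sums do not stand for every marker here either. In visceral muscle, under both scalings, 10 of 13 were lower and 2 higher, with TMM-scaled sums of 1384 to 1435 and 2323 to 2484 CPM, and the muscle genes Act87E, Mhc and Prm were 4.22-fold, 2.50-fold and 2.34-fold lower. The part of these shifts in the values of the 10 genes was not tested.

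Markers of cells from other tissues were low. Their calls stand beside the same 25.0% higher and 24.1% lower of all loci. Hemocyte markers summed to 10.5 to 11.7 CPM in treatment and 6.92 to 8.17 CPM in control, with He at 0, lz and PPO1 called higher and srp lower among 4 tested. The higher sum came from lz (4.07 against 0.27 CPM) and PPO1 (1.97 against 0.34 CPM). The means of srp (3.6 against 5.2 CPM) and Pxn (1.4 against 1.6 CPM, not called) were lower in treatment. Hml, NimC1 and He had from 0 to 7 reads in any library and were not tested. Ovary and eggshell markers summed to 4.51 to 6.99 and 2.41 to 2.86 CPM, with piwi called higher among 2 tested. Most of these sums came from piwi (5.24 against 2.14 CPM). The list members vas, osk, bam, Cp36 and Vm26Aa had from 0 to 8 reads in any library and were not tested. For renal tubule and hindgut the sums were 18.3 to 19.9 and 22.5 to 24.0 CPM, with Irk2 called lower among 4 tested. Their part in the values of the 10 genes was not tested.

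By its profile over the 6 libraries, esg was nearest to CG7222, CG8414 and CG9646 among 6941 other genes whose normalized counts averaged 50 or more. Their root mean square distances in centred log2 CPM were 0.0353, 0.0396 and 0.0397. Each was higher in treatment (1.29-fold, 1.34-fold and 1.31-fold), which follows from choosing them by this profile and is given as a description.

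In the authors' deposited table of 4101 genes, 7 of the 10 genes are listed, and the sign of each is that of treatment over control. The largest adjusted p in that table is 0.0999, so genes with a larger value are absent from it. For comparison, 8137 loci were tested here and 4000 were called at adjusted p under 0.05, so the 2 counts rest on unlike thresholds. The authors' deposited table gives a log2 fold change of 0.83 for hdc, 0.77 for Sox21a, 0.57 for spdo, 0.55 for Sox100B, 0.54 for klu, 0.42 for esg and 0.31 for mira. Snoo, zfh2 and Tet are not among its genes, although Snoo was called lower here. The authors' table holds no values for these genes, so the reason for their absence was not tested.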

How the data were processed

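The deposited transcript table gives raw read counts per transcript in 6 libraries, per the file headers. The sources used here give no aligner, genome build, strand setting or rule for shared reads. DESeq is named without a version in the submitters' processing notes. A second deposited table gives the authors' log2 fold changes, p-values and normalized mean signal per gene, and was only quoted. Each locus was represented by its most-read transcript, since transcripts of a locus share reads. Predicted transcripts (145) were excluded, as were 6 loci with a repeated symbol. A further 6 columns of the authors' normalized values per library were not used. Symbols came from RefSeq (Release 6) by gene ID for 12820 loci.

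The main test was the quasi-likelihood test of edgeR 4.0.16 (R 4.3.3) after TMM scaling and filterByExpr (minimum count 10). Benjamini-Hochberg adjustment was over 8137 loci, with a threshold of 0.05. The procedure was tested on simulated counts. All adjusted p-values are from edgeR unless named otherwise. Alternatives were DESeq2 1.42.0, other scalings, no filter, summed transcripts, a replicate block and leaving out each library. Chi-square over degrees of freedom between libraries of a set was 2.45 to 7.64, above sampling noise, so each was counted as 1 sample. P-values measure the spread between pooled replicates. In the map of columns to samples, treatment was placed with 45 days by convention only, and no result uses it.

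The 10 genes and the lists were chosen with earlier results of these data known. By rule, the text names all 10 genes, the 3 called genes with the smallest adjusted p on each list, and Delta, N, Su(H), pros, numb, nub and GATAe. For the genes nearest to esg, normalized counts were CPM times the mean library size, and genes at 0 in any library were left out.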

Additional observations from a re-analysis of the deposited data

How the results depend on the processing

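Of the 10 genes, 8 were called with DESeq2, with DESeq2 size factors in edgeR, with no filter, with summed transcripts, with the replicate block and without each library in turn, and each time 7 were higher and 1 lower. The count was 10 with total-read scaling and 9 with Tet taken as CG9973 or as the sum of both loci, which was added after the counts were seen. The 8 genes called in the report kept their call and direction under all 12 alternatives. zfh2 was called in 1 of 12 and Tet in 3 of 14. Over all loci, 3323 (DESeq2) to 5202 (total-read scaling) were called, against 4000. The SMAD list had 11 calls with total-read scaling against 6. The ratio of zfh2 to esg, -0.09 on the log2 scale, ran from -0.28 to 0.06 without single libraries, turning to 0.0479 without treatment replicate 1 and to 0.0586 without control replicate 2. As a replicate block, the number in the column name gave 4116 calls over all loci. Deviations of same-numbered libraries correlated at 0.009, 0.093 and 0.021, so the numbers were not taken as pairs. For spdo, zfh2 and CG9973, with at most 104 reads in any library, the SE of the log2 fold change was 0.17 each.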

Other observations

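Several genes known from fate choice in the fly gut or nervous system had too few reads to be tested. The proneural gene ase had 14, 5 and 6 reads across treatment, against 7, 4 and 7 across control, and phyl, an adaptor of the Tramtrack degradation pathway, had 13, 7 and 3 against 3, 1 and 6. l(1)sc was at 0 in all 6 libraries. Of the Notch target genes, E(spl)m5-HLH and E(spl)m8-HLH had at most 3 reads in any library.

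Among fate factors that were called lower, named after their values were seen, cad, a homeobox factor of the posterior gut, was at 85.5 ± 5.48 against 119.2 ± 5.82 CPM (log2 -0.47, adjusted p = 3.71e-09). Stat92E, the transcription factor of JAK-STAT signalling, was at 151.8 ± 15.01 against 179.2 ± 8.21 CPM (log2 -0.24, adjusted p = 0.000459). Hnf4, a nuclear receptor of lipid metabolism, was at 64.5 ± 3.38 against 72.3 ± 3.90 CPM (log2 -0.16, adjusted p = 0.0212). With total-read scaling, 1 of the 24 tested genes of that list was called lower.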
